A study of Arabidopsis thaliana with 12 samples.

Results

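The core circadian clock genes of *Arabidopsis thaliana* are described here in roots and in leaf libraries. The 10 genes were *CCA1* (AT2G46830), *LHY* (AT1G01060), *TOC1* (AT5G61380), *PRR5* (AT5G24470), *PRR7* (AT5G02810), *PRR9* (AT2G46790), *GI* (AT1G22770), *ELF3* (AT2G25930), *ELF4* (AT2G40080) and *LUX* (AT3G46640), chosen by their gene identifiers from 37336 gene identifiers in the count tables. All 10 passed the filter on low counts in every comparison below.

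The plant clock is a loop of repressors that take turns through the day. *CCA1* and *LHY* encode related MYB transcription factors whose transcripts peak around dawn and which repress evening genes, and the pseudo-response regulators follow in the order *PRR9*, *PRR7*, *PRR5* and *TOC1*, from morning to evening, and repress *CCA1* and *LHY* in turn. *ELF3*, *ELF4* and *LUX* encode the evening complex, a repressor that acts around dusk and in the night, and *GI* encodes an evening-phased protein that stabilises the F-box protein ZTL. Compared between groups, these transcripts can therefore be read as lying further to the dawn side or to the evening side of the cycle. Without a time course they do not give the phase itself.

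The 12 RNAseq libraries fell into 4 groups of 3 biological replicates: roots of WT (Col-0), roots of *pi4kß1ß2*, and leaf samples under the same genotype labels. The *pi4kß1ß2* double mutant carries T-DNA insertions in *PI4Kß1* and *PI4Kß2*, which encode type III phosphatidylinositol 4-kinases, and WT carries none. Seedlings were 7 days old, grown without treatment at 22 °C under 16 h of light and 8 h of dark, and the root samples were pools of many plants. The libraries were not a time course, and the time of day of harvest is not given in the sources used here.

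Library totals lay between 39186282 and 47886189 reads, with 38116716 to 46577151 of them assigned to genes. Levels are given as normalized CPM, counts scaled to a common library size by TMM factors computed over all 12 libraries. The leaf markers (5 genes, *RBCS1A* among them) summed to between 34629.8 and 45067.1 normalized CPM in leaf libraries and between 69.8 and 289.9 in root libraries, and the root markers (5 genes, *CASP1* among them) to between 294.7 and 321.5 in roots and between 28.2 and 79.7 in leaves, with none of the 10 at 0. In roots, *PI4Kß2* stood at 14.0 to 16.2 normalized CPM in WT and 6.64 to 7.50 in *pi4kß1ß2*, and *PI4Kß1* at 71.0 to 79.0 and 47.4 to 48.6. In leaves the labels were not separated by either gene: *PI4Kß2* was at 11.8, 4.68 and 12.1 in the libraries labelled WT 1, 2 and 3 and at 11.0, 6.32 and 6.71 in those labelled *pi4kß1ß2*. The libraries labelled WT leaf 2 and *pi4kß1ß2* leaf 1 thus went against their labels, so the leaf groups are named by label throughout, and the members' leaf differences, calls and ratios are also given without these 2 libraries.

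The promoter windows of 4 members are shown because the results below fall along the line between dawn genes and evening genes, and because the evening element, a short sequence named for its frequency in evening-phased genes and bound by CCA1 and LHY, lies in 3 of these windows. Each window runs from 250 bases before to 50 bases after the annotated gene start, 300 bases in all, read 5′ to 3′ on the gene's own strand from RefSeq TAIR10.1. The capitals mark the evening element (AAATATCT, or its reverse complement AGATATTT) in *TOC1*, *PRR5* and *LUX*, and the G-box (CACGTG) in *LHY*. The windows are chr1:37822-38121 (minus strand) for *LHY*, chr5:24674713-24675012 (plus strand) for *TOC1*, chr5:8358497-8358796 (minus strand) for *PRR5* and chr3:17182792-17183091 (plus strand) for *LUX*. The annotated model of *PRR5* starts at its start codon, so its window lies before and into the coding sequence.
*LHY*: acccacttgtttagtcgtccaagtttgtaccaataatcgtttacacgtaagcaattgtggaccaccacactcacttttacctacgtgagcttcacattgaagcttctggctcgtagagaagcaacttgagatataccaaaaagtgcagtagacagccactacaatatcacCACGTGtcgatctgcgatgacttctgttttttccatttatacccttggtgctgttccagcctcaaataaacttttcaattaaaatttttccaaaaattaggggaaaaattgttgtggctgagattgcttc
*TOC1*: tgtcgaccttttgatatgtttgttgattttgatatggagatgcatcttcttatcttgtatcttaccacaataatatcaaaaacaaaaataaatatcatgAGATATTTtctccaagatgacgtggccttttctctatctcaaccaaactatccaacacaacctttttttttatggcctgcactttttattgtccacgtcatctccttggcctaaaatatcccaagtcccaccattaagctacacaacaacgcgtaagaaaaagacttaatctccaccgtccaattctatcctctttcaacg
*PRR5*: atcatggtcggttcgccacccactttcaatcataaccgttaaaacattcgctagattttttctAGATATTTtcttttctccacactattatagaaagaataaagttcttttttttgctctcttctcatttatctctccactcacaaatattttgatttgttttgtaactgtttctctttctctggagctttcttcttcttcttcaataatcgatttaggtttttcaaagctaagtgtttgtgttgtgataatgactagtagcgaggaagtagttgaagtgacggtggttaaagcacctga
*LUX*: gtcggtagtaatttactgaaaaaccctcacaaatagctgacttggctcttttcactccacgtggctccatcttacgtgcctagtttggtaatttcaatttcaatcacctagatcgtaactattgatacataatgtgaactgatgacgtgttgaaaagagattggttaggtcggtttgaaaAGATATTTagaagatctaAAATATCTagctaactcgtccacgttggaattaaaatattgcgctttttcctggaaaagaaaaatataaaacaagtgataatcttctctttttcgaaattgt

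The evening element was found on either strand in 4 of the 9 members whose windows are reported, against 5.65% of 27443 promoters of the same length. The fourth is *PRR9*, where it starts 27 bases into the gene. *LUX* held 2 copies, at -70 and -52 relative to the gene start. *TOC1* held 1 copy at -151 and *PRR5* held 1 at -187. The related CCA1-binding site (AAAAATCT) was in 1 member, *PRR5*, and in 7.88% of promoters.

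The G-box was in 5 members (*CCA1*, *LHY*, *PRR7*, *PRR9* and *LUX*) and in 7.68% of promoters. Letters bound by LUX were in *ELF3* as GATACG (1 member, 5.54% of promoters) and in *PRR9* as GATTCG (1 member, 9.58%). The letters GGTCCCAC, bound by the TCP factor CHE, were at -150 in *CCA1* (1 member, 0.459%). Both strands were searched for every motif, and the matches in the members did not overlap one another. These matches are a description of letters in the windows, not of binding, and *GI* held none of the motifs within its window.

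**Figure D1:**
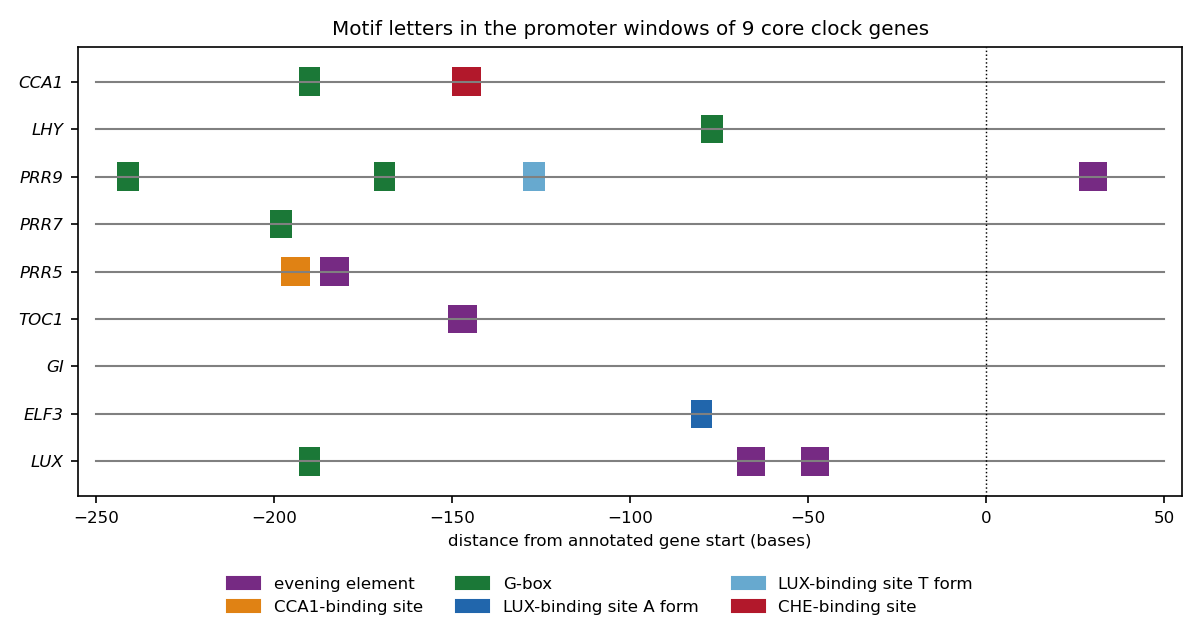
Positions of the motif letters in the 300-base windows of 9 members (horizontal axis: distance from the annotated gene start in bases, with 0 at the start, and each coloured block the length of the motif). *LUX* carries 2 evening elements, and *TOC1*, *PRR5* and *PRR9* carry 1 each.

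The first comparison asks which leaf group stood further to the evening side of the cycle. In the leaf libraries labelled *pi4kß1ß2* the dawn gene *LHY* was 2.77 ± 0.34 (SE) higher on the log2 scale than in those labelled WT. The evening and afternoon genes *ELF4*, *PRR5*, *TOC1*, *GI*, *LUX* and *ELF3* were lower, with log2 fold changes from -2.83 to -0.93, and *PRR7*, *PRR9* and *CCA1* did not pass the test. Judged by *LHY* and these evening and afternoon genes, the leaf libraries labelled *pi4kß1ß2* stood further from the evening side than those labelled WT. A dawn phase as such was not shown, as *CCA1* was not called. Dawn and morning genes outside the members went in both directions. By the edgeR quasi-likelihood test with Benjamini-Hochberg adjustment, 1 of 10 members was called higher and 6 lower at an adjusted p under 0.05, against 3.72% of the 19470 genes tested called higher and 6.76% called lower (10.5% in either direction). The median log2 fold change of the 10 members was -1.03, beside -0.00427 over all genes tested.

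*LHY* was at 1.26, 1.87 and 2.15 normalized CPM in the leaf libraries labelled WT 1, 2 and 3 and at 17.4, 10.8 and 8.50 in those labelled *pi4kß1ß2* 1, 2 and 3. All libraries labelled *pi4kß1ß2* lay above all those labelled WT (adjusted p = 0.0137, edgeR). Its partner *CCA1* was at 19.4, 19.8 and 20.4 in those labelled WT and at 43.8, 26.1 and 21.6 in those labelled *pi4kß1ß2*. These groups also did not overlap, but the highest library labelled *pi4kß1ß2* held 2.02 times the level of the lowest, and the log2 fold change of 0.60 ± 0.26 (SE) was not called (adjusted p = 0.186, edgeR). Without the library labelled *pi4kß1ß2* leaf 1 it was 0.24 (adjusted p = 0.203, edgeR), and without both libraries that went against their labels it was likewise 0.24 (adjusted p = 0.138, edgeR).

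The 2 dawn genes therefore stood in different proportion to each other in the leaf groups. The log2 ratio of *LHY* to *CCA1* was -3.53 ± 0.365 (SD, n = 3) in leaf libraries labelled WT and -1.31 ± 0.043 in those labelled *pi4kß1ß2*. In roots it was -0.456 ± 0.367 in WT and -0.270 ± 0.304 in *pi4kß1ß2*, so the leaf libraries labelled WT held the least *LHY* for their *CCA1*. Without the 2 libraries that went against their labels, the leaf values were -3.942 and -3.247 for the label WT and -1.267 and -1.348 for the label *pi4kß1ß2*.

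*PRR9*, the first pseudo-response regulator of the day, was at 10.6, 8.19 and 10.1 normalized CPM in leaf libraries labelled WT and at 6.48, 11.3 and 13.6 in those labelled *pi4kß1ß2*. *PRR7*, which follows it, was at 197.2, 167.9 and 197.3 and at 195.0, 158.5 and 164.7. For both genes the groups overlapped, and the log2 fold changes were 0.10 ± 0.28 (SE, adjusted p = 0.846, edgeR) and -0.14 ± 0.11 (SE, adjusted p = 0.457, edgeR). Without the libraries labelled WT leaf 2 and *pi4kß1ß2* leaf 1, *PRR7* was called lower, at -0.31 (adjusted p = 0.0161, edgeR), and *PRR9* was at 0.25 (adjusted p = 0.176, edgeR).

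*PRR5*, the afternoon pseudo-response regulator, was at 71.4, 58.5 and 70.6 normalized CPM in leaf libraries labelled WT and at 8.88, 15.5 and 19.1 in those labelled *pi4kß1ß2*. *TOC1*, the evening member of the same family, was at 92.0, 94.1 and 79.9 and at 29.3, 31.9 and 32.9. In both genes every library labelled WT lay far above every library labelled *pi4kß1ß2*, and the libraries labelled *pi4kß1ß2* differed among themselves by 2.15 times in *PRR5* and by 1.12 times in *TOC1*. The log2 fold changes were -2.22 ± 0.28 (SE) for *PRR5* (adjusted p = 0.0137, edgeR) and -1.52 ± 0.09 (SE) for *TOC1* (adjusted p = 0.0036, edgeR).

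*GI* was at 106.2, 110.5 and 110.0 normalized CPM in leaf libraries labelled WT and at 40.0, 48.2 and 54.9 in those labelled *pi4kß1ß2* (log2 fold change -1.21 ± 0.12, SE, adjusted p = 0.00944, edgeR). Of the evening complex genes, *ELF4* was at 18.5, 25.1 and 19.4 and at 1.80, 3.27 and 3.90, a log2 fold change of -2.83 ± 0.30 (SE, adjusted p = 0.0109, edgeR) that was close in size to that of *LHY*. No library labelled *pi4kß1ß2* reached the lowest one labelled WT in either gene. *LUX*, which encodes the DNA-binding partner of the complex, was at 65.9, 66.9 and 69.1 and at 26.1, 33.8 and 33.6 (-1.13 ± 0.11, SE, adjusted p = 0.00944, edgeR). *ELF3*, the scaffold of the complex, was at 65.2, 56.4 and 66.4 and at 29.8, 32.9 and 37.2 (-0.93 ± 0.11, SE, adjusted p = 0.012, edgeR). The groups were again separate in both genes.

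Counting separation alone, 2 members lay higher in all libraries labelled *pi4kß1ß2* and 6 lay lower, and 2 overlapped. Over all genes tested, 37.3% had leaf groups that did not overlap. Without the 2 libraries that went against their labels, 3 members lay higher and 7 lower, and 70.0% of all genes had groups that did not overlap. With all libraries kept, groups are counted as separate only where these 2 also stand with their label, so their place in those members is fixed by definition. *LHY* was at 17.4 normalized CPM in *pi4kß1ß2* leaf 1 and at 1.87 in WT leaf 2, and *ELF4* at 1.80 and 25.1. Whether the leaf differences follow the genotype was not tested.

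**Figure D2:**
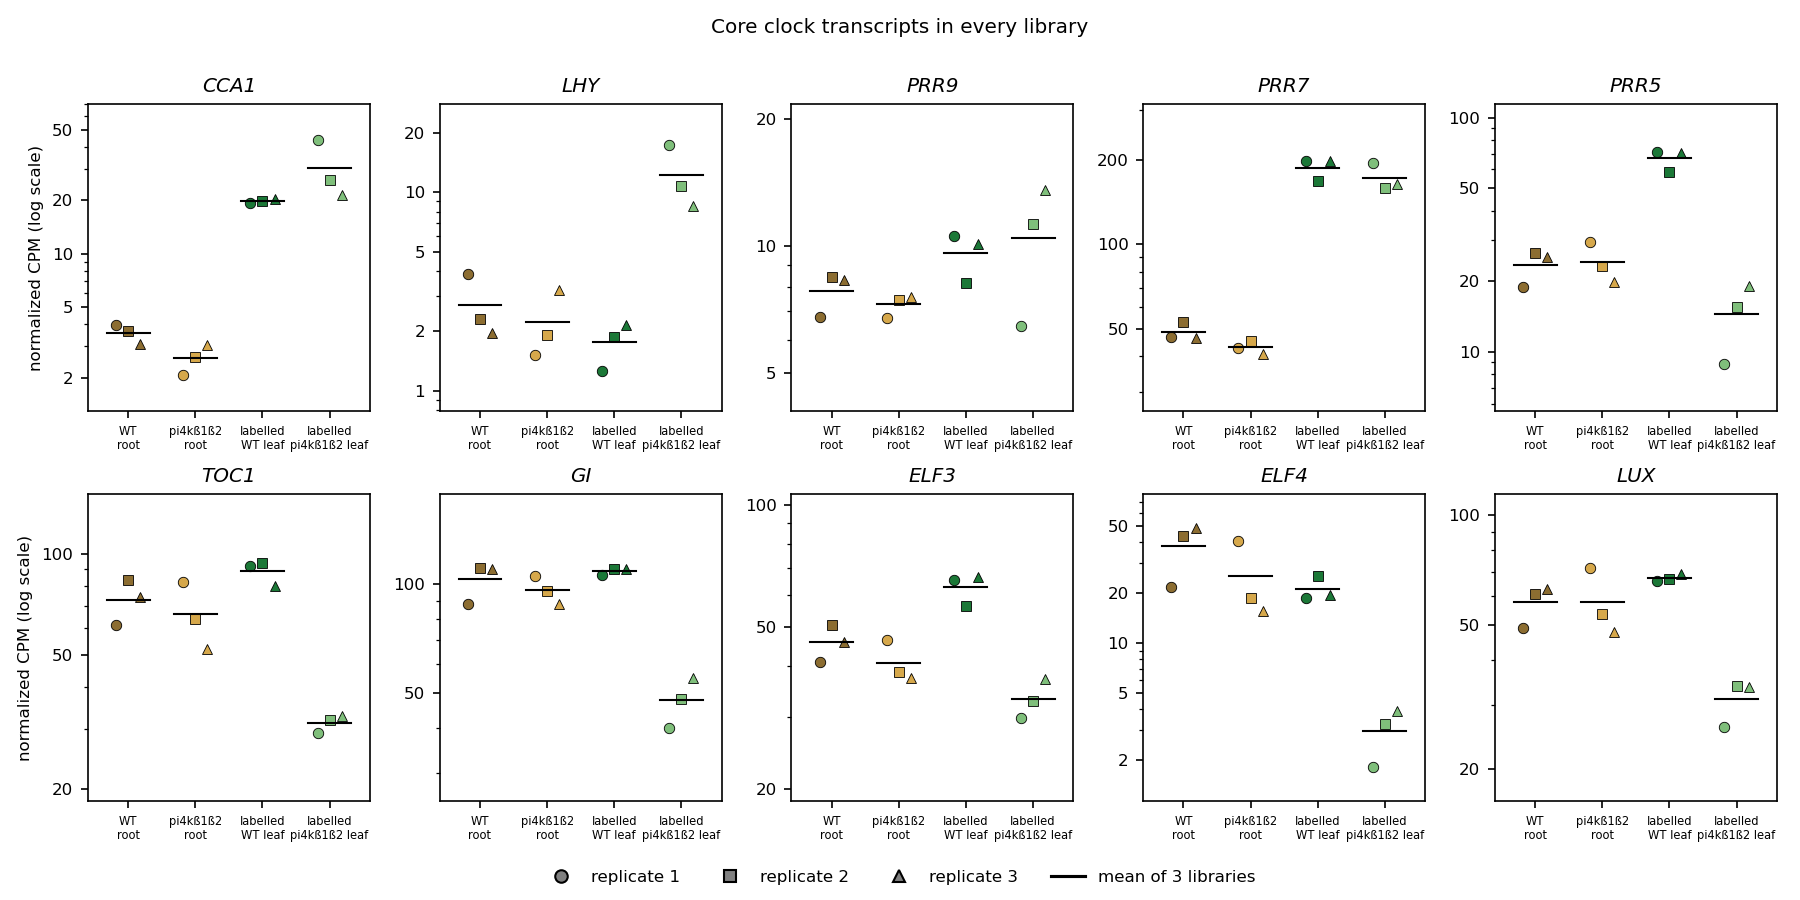
Normalized CPM (logarithmic vertical axis, a separate scale in each panel) of the 10 members in all 12 libraries. Points are libraries, shaped by replicate number, and bars are means of 3. *LHY* is above 8 in all leaf libraries labelled *pi4kß1ß2* and below 4 in the other 9, while *PRR5*, *TOC1*, *GI*, *ELF3*, *ELF4* and *LUX* have their lowest mean in that group.

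The leaf calls depended on which libraries were kept. Without the library labelled WT leaf 1, WT leaf 3 or *pi4kß1ß2* leaf 2, 0 members were called higher and 1 lower (*TOC1*, adjusted p = 0.0358, 0.0246 and 0.0392, edgeR), with 57, 57 and 14 genes called in all. *LHY* was then at adjusted p = 0.06945, 0.06565 and 0.07331 (edgeR). In the 6 leave-one-out fits the log2 fold change of *LHY* lay between 2.43 and 2.98 and that of *ELF4* between -3.06 and -2.57. Those of the 3 members that were not called lay between 0.242 and 0.794 for *CCA1*, between -0.237 and -0.0641 for *PRR7* and between -0.133 and 0.351 for *PRR9*, which changed sign. Without both libraries that went against their labels, 1 member was called higher and 7 lower, against 13.7% and 14.4% of the 19517 genes then tested (28.1% in either direction). *LHY* was then at 2.48 (adjusted p = 0.0035, edgeR), *TOC1* at -1.43 (adjusted p = 0.000514, edgeR) and *ELF4* at -2.42 (adjusted p = 0.000403, edgeR). *PRR5* was at -2.06, *GI* at -1.09, *LUX* at -1.02 and *ELF3* at -0.93, with adjusted p between 0.0004283 and 0.001204 (edgeR). The time of harvest being unknown, a difference in the time of harvest and a difference in the clock itself cannot be told apart. In tissue measured in bulk, fewer cells of a type and less RNA per cell cannot be told apart either.

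The log2 ratio of the summed dawn transcripts (*CCA1* plus *LHY*) to each evening transcript places single libraries along the same line, and is given without a test. Against *TOC1* it was -2.03 ± 0.183 (SD, n = 3) in leaf libraries labelled WT and 0.382 ± 0.614 in those labelled *pi4kß1ß2*. In roots it was -3.55 ± 0.502 in WT and -3.80 ± 0.736 in *pi4kß1ß2*. Without the libraries labelled WT leaf 2 and *pi4kß1ß2* leaf 1, the leaf values were -2.16 and -1.82 for the label WT and 0.209 and -0.126 for the label *pi4kß1ß2*. The leaf libraries labelled *pi4kß1ß2* thus had the highest ratio of the 4 groups. Against *ELF4* the ratio was 0.056 ± 0.234 in leaf libraries labelled WT, 3.85 ± 1.11 in those labelled *pi4kß1ß2*, -2.53 ± 0.944 in WT roots and -2.29 ± 1.12 in *pi4kß1ß2* roots. Against *GI* and against *LUX* the order of the leaf groups was the same, at -2.33 ± 0.042 and -0.212 ± 0.753 for *GI* and at -1.64 ± 0.031 and 0.398 ± 0.732 for *LUX*. Without the 2 libraries, the values for the label WT and those for the label *pi4kß1ß2* were 0.158 and 0.221 against 3.496 and 2.952 for *ELF4*. They were -2.362 and -2.285 against -0.385 and -0.864 for *GI*, and -1.674 and -1.615 against 0.125 and -0.158 for *LUX*.

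**Figure D3:**
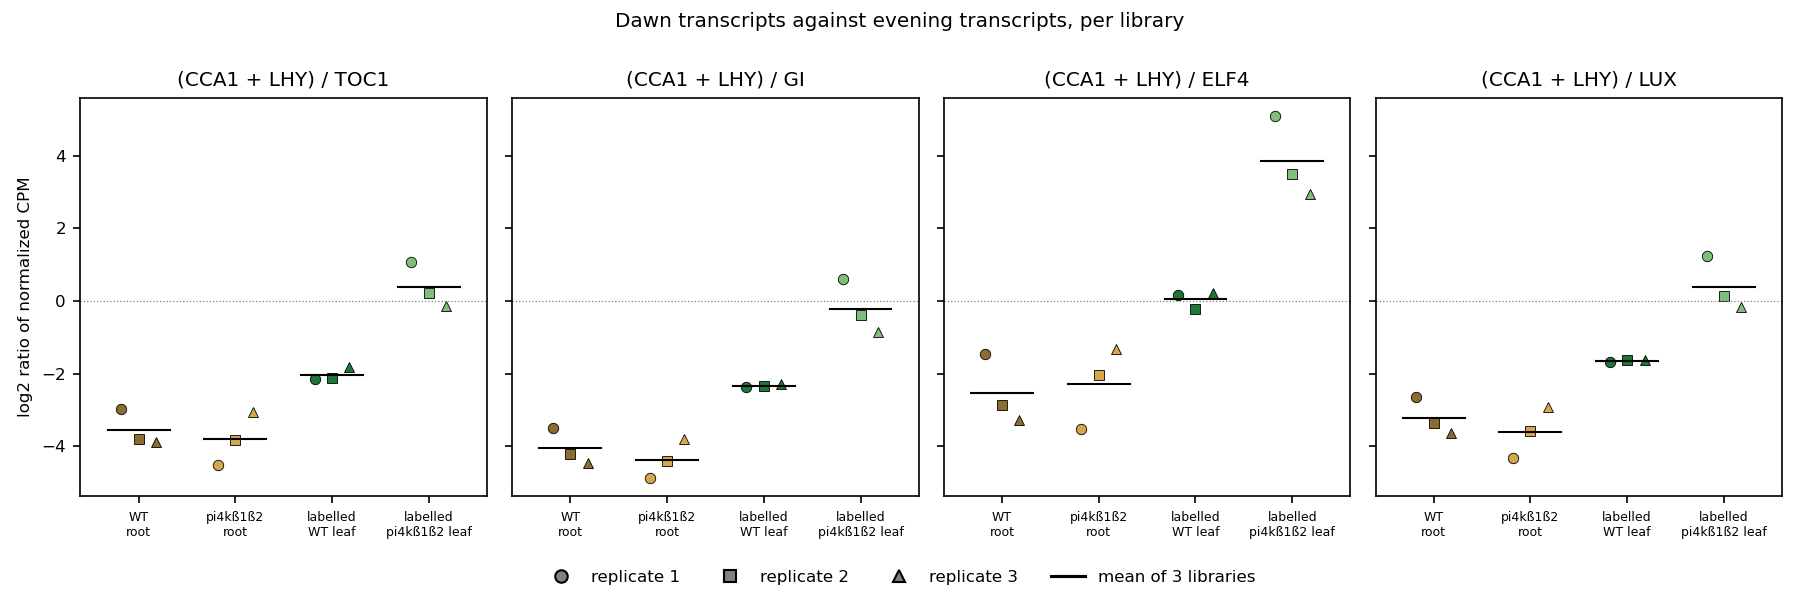
Log2 ratio of *CCA1* plus *LHY* to *TOC1*, *GI*, *ELF4* and *LUX* (vertical axis, normalized CPM) in each of the 12 libraries, with the mean of 3 as a bar. The leaf libraries labelled *pi4kß1ß2* are the highest in every panel, and the root groups overlap each other.

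Libraries of 1 group also differed along this line. In the roots of WT, those of *pi4kß1ß2* and the leaf libraries under the mutant label, the replicate with the most *LHY* was also the one with the most *CCA1* and the least of all 6 of *PRR5*, *TOC1*, *GI*, *ELF3*, *ELF4* and *LUX*. This was replicate 1 in WT roots, replicate 3 in *pi4kß1ß2* roots and replicate 1 in the leaf libraries labelled *pi4kß1ß2*. In leaf libraries labelled WT it held for 1 of the 6, *TOC1*, and the highest replicate was at most 1.35 times the lowest for each of the 6. The widest such range was that of *ELF4*, at 2.24 times in WT roots, 2.61 times in *pi4kß1ß2* roots and 2.17 times in leaf libraries labelled *pi4kß1ß2*. The members share these libraries, so their joint movement within a group is a description and has no test.

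The second comparison asks whether the double mutation went with other clock transcript levels in roots. None of the 10 members was called in *pi4kß1ß2* roots against WT roots (0 higher and 0 lower, edgeR), while 11.3% of the 19694 genes tested were called higher and 15.2% lower (26.6% in either direction). At an unadjusted p under 0.05 the edgeR test gave 0 members higher and 2 lower, and DESeq2 and edgeR's likelihood ratio test each called 0 after adjustment. Scaling by library size alone gave 3122 genes higher and 2583 lower in roots, in place of 2233 and 3000, and called no member. The median log2 fold change of the members was -0.153, beside 0.00608 over all genes tested. Both groups of roots held *TOC1*, *GI* and *LUX* above 47 normalized CPM and *LHY* below 4 in all 6 libraries. *ELF4* lay between 21.6 and 48.6 in WT roots and between 15.6 and 40.9 in *pi4kß1ß2* roots. Without a time course, such levels of different genes do not give the phase of the roots.

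*CCA1* was at 3.95, 3.68 and 3.08 normalized CPM in WT roots and at 2.06, 2.60 and 3.06 in *pi4kß1ß2* roots, and *PRR7* was at 47.0, 53.1 and 46.4 and at 42.9, 45.5 and 40.8. In these 2 genes all mutant libraries lay below all WT libraries, although only narrowly, and 44.6% of all genes tested had root groups that did not overlap. The log2 fold changes were -0.47 ± 0.17 (SE, adjusted p = 0.0786, edgeR) for *CCA1* and -0.18 ± 0.06 (SE, adjusted p = 0.0751, edgeR) for *PRR7*. *CCA1* was called without *pi4kß1ß2* root replicate 3, at -0.62 (adjusted p = 0.046, edgeR), and *PRR7* with the replicate number as a block, at -0.18 (adjusted p = 0.0341, edgeR).

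In the other 8 members the root groups overlapped. *LHY* was at 3.87, 2.30 and 1.96 in WT roots and at 1.51, 1.91 and 3.23 in *pi4kß1ß2* roots (log2 fold change -0.27 ± 0.37, SE, adjusted p = 0.647, edgeR). *ELF4* was at 21.6, 43.4 and 48.6 and at 40.9, 18.6 and 15.6 (-0.60 ± 0.53, SE, adjusted p = 0.477, edgeR), so that replicate 1 stood apart from the other two in both genotypes and in opposite directions. *TOC1* was at 61.5, 83.3 and 74.2 in WT roots and at 82.1, 63.9 and 52.1 in *pi4kß1ß2* roots (-0.14 ± 0.20, SE, adjusted p = 0.659, edgeR).

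The remaining 5 members overlapped as well. *GI* lay between 88.1 and 111.1 in WT roots and between 87.9 and 105.1 in *pi4kß1ß2* roots, and *LUX* between 49.1 and 62.8 and between 47.7 and 71.5. *PRR5* lay between 18.9 and 26.3 and between 19.8 and 29.4, *PRR9* between 6.80 and 8.43 and between 6.76 and 7.59, and *ELF3* between 41.1 and 50.7 and between 37.4 and 46.5. Their log2 fold changes lay between -0.16 (*ELF3*) and 0.04 (*PRR5*), with the SE between 0.10 and 0.19.

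**Figure D4:**
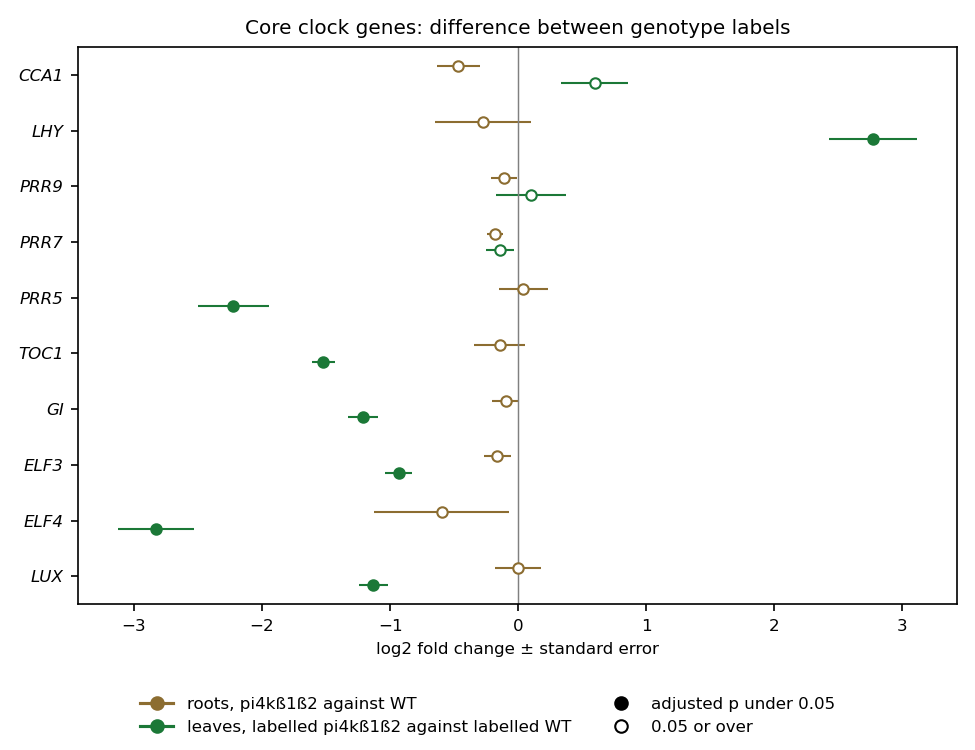
Log2 fold change between genotype labels (horizontal axis, ± standard error, edgeR, 3 libraries per group) of the 10 members in roots and in leaves; filled points have an adjusted p under 0.05. The 7 filled points are all from leaves, from -2.83 (*ELF4*) to 2.77 (*LHY*), and all 10 root points are open.

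The difference between the 2 organs in this contrast was tested as an interaction term over all 12 libraries. The difference between labels in roots minus that in leaves was above 0 for 6 members and below 0 for 2 at an adjusted p under 0.05 (edgeR), against 10.6% and 12.4% of the 20169 genes tested (23.0% in either direction). Scaling by library size alone gave 2658 genes above 0 and 1848 below, in place of 2144 and 2502. The interaction was -3.07 ± 0.55 (SE) for *LHY* (adjusted p = 0.0041, edgeR), 2.24 ± 0.36 for *PRR5* (adjusted p = 0.00238, edgeR), 2.21 ± 0.61 for *ELF4* (adjusted p = 0.0266, edgeR) and 1.35 ± 0.23 for *TOC1* (adjusted p = 0.003, edgeR). It was not called for *PRR7* (-0.06 ± 0.13, adjusted p = 0.778, edgeR) and *PRR9* (-0.23 ± 0.32, adjusted p = 0.647, edgeR). The call of *CCA1* (-1.09 ± 0.34, adjusted p = 0.0455, edgeR) held in 10 of 20 alternatives. It was lost with the replicate number as a block (adjusted p = 0.0688, edgeR), without a filter on low counts, and without any 1 of the 3 leaf libraries labelled WT, any 1 of the 3 WT root libraries or *pi4kß1ß2* root replicate 1 or 2 (adjusted p from 0.05061 to 0.09619, edgeR). That of *ELF4* was lost without *pi4kß1ß2* root replicate 1, without the library labelled *pi4kß1ß2* leaf 1, and without both libraries that went against their labels (1.80, adjusted p = 0.124, edgeR). Without these 2 libraries the term was above 0 for 5 members and below 0 for 2, against 13.9% and 20.2% of the 19582 genes then tested (34.1% in either direction).

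The organ comparison within WT asks how the clock of roots stood against that of leaves. *CCA1* and *PRR7* were lower in WT roots than in leaf libraries labelled WT, with log2 fold changes of -2.48 ± 0.11 and -1.94 ± 0.09 (SE, adjusted p = 5.89e-06 and 8.21e-06, edgeR), as was *PRR5* (-1.51 ± 0.15, adjusted p = 0.000232, edgeR). *ELF3* was lower too (-0.45 ± 0.10, adjusted p = 0.00664, edgeR), and *ELF4* was the 1 member called higher (0.85 ± 0.31, adjusted p = 0.0484, edgeR). In all 1 member was called higher and 4 lower, against 36.3% and 37.4% of the 20291 genes tested (73.7% in either direction). *LHY*, *TOC1*, *PRR9*, *GI* and *LUX* did not pass the test, with *GI* at -0.08 ± 0.10 (SE, adjusted p = 0.479, edgeR). In 5 members all WT root libraries lay below all leaf libraries labelled WT, and in 0 above, while 79.2% of all genes tested had groups that did not overlap.

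Scaling by library size alone moved the median of all genes in this comparison from -0.003 to 0.476 on the log2 scale and gave 12116 genes higher and 4598 lower in place of 7363 and 7585. Under it *TOC1*, *PRR9*, *GI*, *ELF3* and *LUX* changed sign, and *CCA1*, *PRR5* and *PRR7* were still lower, at -2.0, -1.03 and -1.46. The call of *ELF4* held in 7 of 14 alternatives, and without any 1 of the 3 leaf libraries labelled WT or WT root replicates 2 or 3 it was lost. Without the library labelled WT leaf 2, 0 members were called higher and 5 lower.

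In the *pi4kß1ß2* libraries the organ comparison gave another set of calls. *ELF4* was 3.05 ± 0.48 higher in roots on the log2 scale (SE, adjusted p = 0.00131, edgeR), *TOC1* 1.07 ± 0.17 (adjusted p = 0.00123, edgeR), *GI* 1.01 ± 0.13 (adjusted p = 0.000503, edgeR) and *LUX* 0.88 ± 0.18 (adjusted p = 0.00414, edgeR). Lower in roots were *CCA1* (-3.56 ± 0.32, adjusted p = 0.000109, edgeR), *LHY* (-2.46 ± 0.39, adjusted p = 0.00134, edgeR) and *PRR7* (-2.01 ± 0.09, adjusted p = 5.85e-06, edgeR). This makes 4 members called higher and 3 lower, against 39.3% and 39.3% of the 20413 genes tested (78.6% in either direction). Groups were separate in 6 members with roots above and in 3 with roots below, and in 83.4% of all genes tested. Scaling by library size alone moved the median of all genes from 0.001 to 0.572 here and gave 12634 genes higher and 4727 lower in place of 8017 and 8026, and kept the direction of these 7 members. Without the library labelled *pi4kß1ß2* leaf 1, 4 members were called higher and 4 lower. The organ comparisons share root and leaf libraries with the genotype comparisons and are not independent of them.

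Put per kilobase of annotated exon, which allows levels of different genes to be set side by side, *PRR7* was the most abundant member in leaf libraries labelled WT (58.0 ± 5.23 normalized CPM per kb, SD, n = 3). *PRR5* (39.9 ± 4.30, over its coding length), *ELF4* (33.9 ± 5.75) and *TOC1* (31.6 ± 2.75) followed, and neighbours among these 3 overlapped within 1 SD. *LHY* was the least abundant, at 0.515 ± 0.133 per kb. In the leaf libraries labelled *pi4kß1ß2*, *PRR7* was again first (53.4 ± 6.04 per kb). The means of *ELF3*, *TOC1*, *CCA1* and *GI* lay together between 11.1 and 12.1 per kb, with an SD of 4.3 for *CCA1*. *LHY* again had the lowest mean (3.58 ± 1.35), but *ELF4* (4.83 ± 1.74) and *PRR9* (4.90 ± 1.71) overlapped it within 1 SD. In WT roots *ELF4* was first (61.2 ± 23.1 per kb) and *LHY* last (0.791 ± 0.298). Without the 2 leaf libraries that went against their labels, *PRR7* was still first and *LHY* last under both labels.

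The wider clock genes, a list of 29 genes that act with the members, were followed to see whether genes of the same phases moved alike. In the leaf comparison 2 were called higher and 7 lower of 29 tested (median log2 fold change -0.232), where 3.72% and 6.76% of all genes were, and of 12 clock output genes 10 were tested, with 1 called higher and 3 lower (median -0.267). Sorted by textbook phase, 0 of the 6 evening genes that are not members were called higher and 5 lower, with a median of -2.21. Of the 16 dawn and morning genes, 2 were called higher and 4 lower, with a median of 0.08. Evening genes outside the members were thus mostly lower in the leaf libraries labelled *pi4kß1ß2*, and dawn and morning genes went in both directions. Without the 2 libraries that went against their labels, 0 of these evening genes were called higher and 5 lower (median -1.95), and 4 dawn and morning genes higher and 6 lower (median -0.0621), where 13.7% and 14.4% of all genes were.

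Among the evening genes called was *FKF1*, a blue-light receptor F-box protein gene of the late day. *FKF1* was at 33.4, 26.8 and 32.9 normalized CPM in leaf libraries labelled WT and at 0.712, 2.31 and 3.93 in those labelled *pi4kß1ß2* (log2 fold change -3.75 ± 0.52, SE, adjusted p = 0.0156, edgeR). *PRR3*, the remaining pseudo-response regulator, was at 33.0, 26.0 and 32.9 and at 3.02, 5.68 and 7.98 (-2.48 ± 0.34, SE, adjusted p = 0.0155, edgeR). Both were separate between the labels, with the library labelled *pi4kß1ß2* leaf 1 the lowest. Without the library labelled WT leaf 1, WT leaf 3 or *pi4kß1ß2* leaf 2, neither gene was called (adjusted p from 0.0724 to 0.093, edgeR). *GRP7*, which encodes a glycine-rich RNA-binding protein with an evening peak, fell by 2.46 on the log2 scale, its close relative *GRP8* by 1.06, and *JMJ30*, a histone demethylase gene of the evening, by 1.96. *GRP7* and *GRP8* are similar in sequence, and the authors left out reads with several hits.

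*LNK2*, a morning co-activator gene, was higher in the leaf libraries labelled *pi4kß1ß2*, at 422.3, 336.6 and 300.8 normalized CPM against 136.4, 114.6 and 137.2 in those labelled WT (1.43 ± 0.15, SE, adjusted p = 0.0104, edgeR). *RVE4*, a morning MYB activator related to *CCA1*, was also higher (0.48 ± 0.09, SE, adjusted p = 0.0256, edgeR). Other genes listed as morning genes were called lower, namely *RVE2* (-1.44), *RVE7* (-1.09), *CDF1* (-0.59) and *LNK1* (-0.55). *CDF1* lost its call with the replicate number as a block (adjusted p = 0.0752, edgeR). *LHCB1.1*, a gene of the light-harvesting complex, was called higher (0.99 ± 0.19, SE, adjusted p = 0.0299, edgeR), and is uncertain because near-identical copies share its reads. Without the 2 libraries that went against their labels, all 12 of the leaf genes named here outside the members were called in the same direction.

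In roots, 1 of 28 wider genes tested was called higher and 5 lower (median log2 fold change -0.07), and 0 and 2 of 8 output genes tested, where 11.3% and 15.2% of all genes were called. The genes given next are those that passed the test, and their number was not compared with that background by a test. None of the 6 evening genes outside the members was called in either direction by edgeR (0 higher, 0 lower, and likewise 0 and 0 at an unadjusted p under 0.05), with a median of -0.08. Of the 16 dawn and morning genes outside the members, 14 were tested in roots. Of these, 0 were called higher and 6 lower by edgeR, with a median of -0.3. *CHE*, which encodes a TCP factor that binds the *CCA1* promoter, was at 16.6, 17.3 and 16.4 normalized CPM in WT roots and at 10.1, 9.15 and 8.44 in *pi4kß1ß2* roots (-0.86 ± 0.07, SE, adjusted p = 0.000179, edgeR), with no overlap. *RVE4* (-0.59), *RVE1* (-0.45), *RVE2* (-0.44) and *LNK1* (-0.27) were called lower as well, as were the output genes *CDF5* (-0.99), at 1.14 to 2.69 normalized CPM, and *CDF2* (-0.29). *ELF4-L3*, a relative of *ELF4*, was called higher (0.57).

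**Figure D5:**
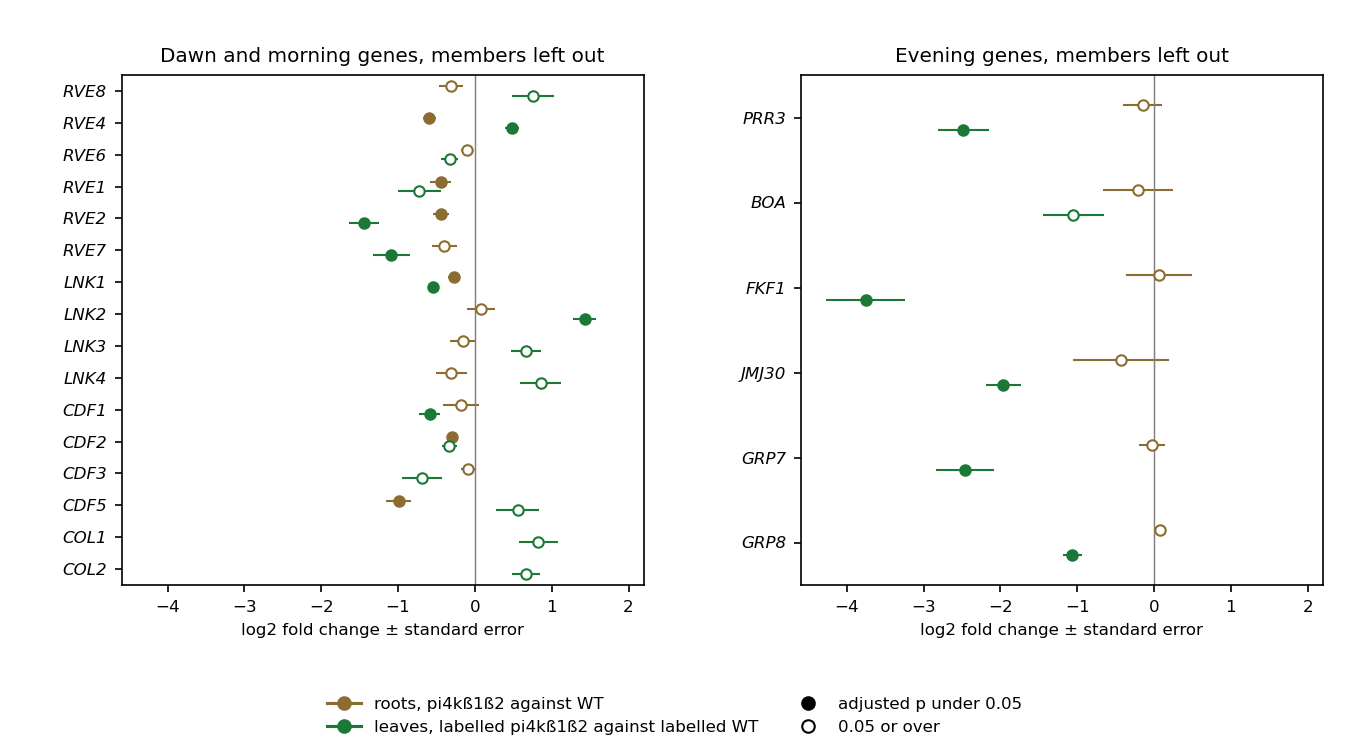
Log2 fold change between genotype labels (horizontal axis, ± standard error, edgeR) of the dawn and morning genes (left) and the evening genes (right) that are not members, in roots and leaves; filled points have an adjusted p under 0.05. Of the 6 evening genes, 5 are filled in leaves, from -3.75 (*FKF1*) to -1.06 (*GRP8*), and none in roots.

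The genes whose profile over the 12 libraries lay nearest to a dawn and to an evening member were found by the root mean square difference of log2 normalized CPM, each gene centred on its own mean, among 20159 genes. For *CCA1* the nearest 5 were AT3G47560 (0.153), *PSY1* (AT5G58650, 0.168), AT2G04080 (0.172), *SQD1* (AT4G33030, 0.178) and AT1G11860 (0.19), in log2 units. For *TOC1* they were *TZP* (AT5G43630, 0.185), *ALDH5F1* (AT1G79440, 0.205), *COL9* (AT3G07650, 0.231), AT4G27130 (0.234) and AT5G27930 (0.235). *TZP*, for example, averaged 34.2 normalized CPM in leaf libraries labelled WT, 14.0 in those labelled *pi4kß1ß2*, 30.6 in WT roots and 25.5 in *pi4kß1ß2* roots. *SQD1*, near *CCA1*, averaged 116.7 in leaf libraries labelled WT, 161.9 in those labelled *pi4kß1ß2*, 24.2 in WT roots and 19.2 in *pi4kß1ß2* roots. The organ difference of *SQD1* was thus larger than its difference between labels. These likenesses rest on libraries that are shared by all genes and have no test.

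Overlapping genes touched 2 members. *LUX* shares 1507 bases with AT3G46650 on the other strand, and 51 to 210 reads per library fell on the strand opposite to *LUX*, while *ELF3* shares 183 and 24 bases with 2 genes on its opposite strand. Every other member had 11 or fewer reads on its opposite strand in each library, and *ELF3* had at most 7. Counting without regard to strand left every leaf call of the members as it was, 1 higher and 6 lower.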

How the data were processed

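Reads were trimmed (Trimmomatic), cleared of ribosomal RNA (sortMeRNA) and mapped to the TAIR10 genome by STAR, and the authors deposited the raw counts per gene, without reads of several hits and without normalization. The column of the library's own strand was analysed. Rows that name no gene (2.67% to 2.97% of reads) were left out. Samples were grouped by their labels, and the paper describes the roots and not the leaves. The members and gene lists were chosen with earlier results of these data known.

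A gene was tested where 3 of 6 libraries (6 of 12 for the interaction) reached 1 CPM, with edgeR 4.0.16 in R 4.3.3 (TMM, glmQLFit with robust estimation, glmQLFTest, Benjamini-Hochberg, threshold 0.05). SE values were derived from the log2 fold change and the F statistic. The script was tested on simulated data. Alternatives were DESeq2 1.42.0, the likelihood ratio test, RLE size factors, library size only, no filter, a fit of all 12 libraries, counts without regard to strand, a replicate block, leaving out each library and, chosen after seeing the data, leaving out both libraries that went against their labels. Named genes were all members and, of the wider and output lists, up to 12 per comparison that were called, by size of change. The p-values measure the spread between libraries, and counts of reads amplified by PCR are not counts of independent molecules.

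Deviations from the group means over 20169 genes correlated at r = 0.39, 0.65 and 0.137 between same-numbered leaf libraries. Between leaf libraries of unlike number r lay between -0.569 and 0.158. The third same-numbered pair was below that of WT 3 with *pi4kß1ß2* 1 (0.158), so a pairing by number is uncertain. The labels do not state one. The main tests left the numbers out, and the replicate block was an alternative. Same-numbered root libraries were at r = -0.0466, 0.281 and 0.575. Gene positions, exon lengths and promoters are those of RefSeq TAIR10.1, a later release of the TAIR10 assembly, in which 37051 of 37336 identifiers were found. The promoter of 1 member is not reported here. The files give no coordinates.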

Additional observations from a re-analysis of the deposited data

Results flagged for a closer look

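For 8 of the 10 members, and for 23.0% of the 20169 genes tested, the difference between genotype labels differed between roots and leaves by the interaction test (edgeR, adjusted p under 0.05, root difference minus leaf difference, log2 scale). Among the members the value was -1.09 for *CCA1*, -3.07 for *LHY*, 1.35 for *TOC1*, 2.24 for *PRR5*, 1.09 for *GI*, 0.75 for *ELF3*, 2.21 for *ELF4* and 1.11 for *LUX*. The 17 other named clock genes had been named because they were called in roots or in leaves, so their number is no result, and 9 of them passed the same test, with 3.80 for *FKF1*, 2.31 for *PRR3*, 2.41 for *GRP7*, 1.11 for *GRP8*, 0.97 for *RVE2*, -1.10 for *RVE4*, -1.37 for *LNK2*, -0.91 for *CHE* and -1.57 for *CDF5*. All of these rest on leaf groups in which 2 libraries went against their labels. Without those 2, 7 of the members were called, against 34.1% of the 19582 genes then tested, and the same 9 other genes were called in the same direction.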

How the results depend on the processing

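In roots, 1 member was called lower with the replicate block (*PRR7*, -0.18, adjusted p = 0.0341, edgeR), and leaving out 1 library gave 0 to 1. Changes of sign in roots concerned values that were never called: in leave-one-out fits *LHY* ran from -0.66 to 0.071, *PRR5* from -0.13 to 0.16 and *LUX* from -0.19 to 0.12, and *LUX* was at -0.012 with the block and at -0.000366 in the fit of all 12 libraries. In leaves, leaving out 1 library gave 0 to 1 members higher and 1 to 6 lower, leaving out both libraries that went against their labels gave 7 lower, and *PRR9* ran from -0.13 to 0.35. The replicate block left 1 member higher and 6 lower in leaves and, of the other named leaf genes, ended only the call of *CDF1*.

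In WT organs, members called higher numbered 3 with library size only, 0 without a filter, 0 in the fit of all 12 libraries and 0 to 1 in leave-one-out fits. With library size only, *TOC1* was at 0.20, *PRR9* at 0.18, *GI* at 0.40, *ELF3* at 0.027 and *LUX* at 0.25, and *PRR9* in *pi4kß1ß2* organs was at 0.024. *GI* ran from -0.14 to 0.025 in leave-one-out fits. For the interaction, members called lower fell to 1 without a filter and to 1 with the replicate block, and lay at 1 to 2 in leave-one-out fits. *PRR7* was at 0.031 with library size only and at 0.10 without both libraries, and ran from -0.13 to 0.032 in leave-one-out fits, as *PRR9* did from -0.48 to 0.0015. The cause of these changes was not tested.

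Over all genes, leaf calls (724 higher, 1317 lower) became 1690 and 2052 with DESeq2, 2455 and 2853 in the fit of all 12 libraries, 4 to 911 and 10 to 1361 in leave-one-out fits, and 2683 and 2811 without both libraries that went against their labels, an alternative chosen after seeing the data. Root calls (2233 and 3000) became 638 and 1706 in the fit of all 12 libraries. Interaction calls (2144 and 2502) fell to as low as 1310 higher in leave-one-out fits and came to 3951 lower without both libraries. Counts were thin for *LHY* and *CCA1* in roots (77 to 189 reads per library), for *LHY* in leaf libraries labelled WT (43 to 75) and for *ELF4* in those labelled *pi4kß1ß2* (53 to 126).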
